A study of Mus musculus with 310 samples.

Results

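Krt14, Krt5 and Krt15, the keratins of the basal epidermal layer, were examined as 3 of the 14068 genes in a table of estimated read counts from single mouse epidermal cells. They were chosen by name, with no measured value in the rule, and all 3 passed the filter on low counts that left 11760 genes for testing. The study asks whether cells of the Lrig1 lineage keep a memory of a healed wound as the skin ages, and it sorted tdTomato-positive cells from repaired and age-control tail skin. Both groups came from mice carrying Lrig1-EGFP-ires-CreERT2 and Rosa26-fl/STOP/fl-tdTomato on a CBA C57BL/6 mixed strain, given 1 dose of topical hydroxytamoxifen. Because Lrig1, a stem cell gene of the follicle's junctional zone, drives the Cre, the reporter marks such cells and whatever they have since become, and not every basal cell.

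The labels assign 145 cells to the group 38w and 165 to the group 38wUW, with the same time of 38 weeks for both. What UW stands for, and which group was wounded, is not given in them, so each difference is given as 38w against 38wUW with no reading as repaired or control. Replicate RepI of 38w held 70 cells on 2 plates (C114 with 53 and C118 with 17), and RepL held 75 cells on plate C119. In 38wUW, RepM held 82 cells on plate C128 and RepN held 83 on plate C129. Tests compared replicates, never cells (n = 2 against n = 2), and since the labels do not tie replicates to separate animals, the p-values measure the spread between these replicates only. Whether fewer cells of a type or less RNA per cell lies behind a difference in summed reads cannot be told apart from the sums alone, which is why values within clusters of like cells are also given.

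Keratins build the intermediate filaments of epithelia, and a filament is assembled from pairs of one acidic type I and one basic type II chain. Krt14 (type I) and Krt5 (type II) are the classical pair of the basal layer, where cells divide and hold to the basement membrane, and both are shut down as cells move up and switch to Krt10 and Krt1. Krt15 is a further type I chain of basal cells that can pair with Krt5, and in hair follicles it is best known from the stem cells of the bulge.

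On the mouse genome (GRCm38, GENCODE M21 annotation), Krt14 (ENSMUSG00000045545) lies at chr11:100203162-100207548 and Krt15 (ENSMUSG00000054146) at chr11:100131758-100135928, both on the minus strand with 8 exons and within the type I cluster. Krt5 (ENSMUSG00000061527) lies at chr15:101707070-101712898 on the minus strand with 9 exons. Their transcripts are 1698, 1700 and 2197 bases long for Krt14, Krt15 and Krt5, so that reads of Krt14 and Krt15 can be set side by side almost directly, whereas Krt5 needs a correction for length.

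Part of Krt14 cannot be told from its neighbours by a short read. Of the 1668 words of 31 bases in its transcript, 486 (29.1%) also stand in a transcript of another gene, 303 of them in Krt16 and 180 in Krt17. For Krt5 the share was 15.8%, led by Krt6a, and for Krt15 it was 3.89%. The longest run of coding sequence that Krt14 has in common with Krt16 is 134 bases, longer than the 75 bases of a read here, with Krt17 it is 71 bases and with Krt15 it is 28 bases. The stretch around the run shared with Krt16 is shown because reads from it have to be divided among genes by the counting program. All 4 sequences are coding, 5′ to 3′ on the transcript (minus strand of chromosome 11), from a single exon each, and capitals mark bases that differ from Krt14 at the same place.
Krt14 (chr11:100207002-100207165): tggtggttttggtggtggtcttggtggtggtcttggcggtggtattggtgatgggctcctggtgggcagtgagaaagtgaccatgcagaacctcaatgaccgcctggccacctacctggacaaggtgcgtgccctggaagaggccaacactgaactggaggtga
Krt16 (chr11:100248461-100248624): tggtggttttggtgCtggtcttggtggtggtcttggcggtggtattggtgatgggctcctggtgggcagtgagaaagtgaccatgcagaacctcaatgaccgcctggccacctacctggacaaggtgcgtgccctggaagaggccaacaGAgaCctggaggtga
Krt17 (chr11:100260623-100260786): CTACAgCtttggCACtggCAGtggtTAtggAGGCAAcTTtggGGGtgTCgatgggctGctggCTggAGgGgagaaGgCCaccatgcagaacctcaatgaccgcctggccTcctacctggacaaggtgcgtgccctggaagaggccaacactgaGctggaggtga
Krt15 (chr11:100135474-100135637): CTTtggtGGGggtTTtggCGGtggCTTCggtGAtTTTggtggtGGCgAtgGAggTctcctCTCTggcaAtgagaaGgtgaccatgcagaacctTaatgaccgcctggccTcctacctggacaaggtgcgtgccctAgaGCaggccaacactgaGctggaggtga
Over these 164 bases Krt16 differs from Krt14 at 4 places, Krt17 at 38 and Krt15 at 39. Counts of Krt14 are therefore uncertain to the extent that reads were given to Krt16 or taken from it. In these cells Krt16, a keratin of stressed and healing epidermis, was listed at 11.1 to 125 CPM per kilobase of transcript (CPM being reads of a gene per 1000000 reads in all) over the 4 replicates, against 486 to 11552 for Krt14. Krt17, a type I keratin of hair follicles and ducts, reached 353 to 2494 on the same scale, above Krt14 in RepM, where the values were 1665 and 1065.

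The plates were not alike within a group. Reads per cell ran from 11711 to 721564 (median 61294), and replicate sums from 5472070 to 12946742. The median share of reads in ribosomal protein genes was 31.6% on plate C114 against 3.6 to 6.76% on the other plates, and mitochondrial genes 33.8% on C118 against 2.77 to 18.3% elsewhere. On C114, 11 well names were given to 2 cells each. Log2(CPM + 1) of such pairs correlated across genes at a median of 0.489 (highest 0.552) against 0.396 for cells of other wells (highest 0.546), and they were kept as separate cells. The names of 15 cells end in a suffix that the labels leave unexplained, IDTILL for 13 and MBULK for 2 (1 each in RepL and RepN), and the latter may be pools of cells, since the study also made mini-bulk libraries. Leaving out the 2 or the 15 gave log2 fold changes of 3.46 and 3.48 for Krt14, 2.09 and 2.09 for Krt5, and 0.39 and 0.41 for Krt15. The fold changes, shares of cells and ratios of the 3 keratins are therefore also given without C114.

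Markers of cells other than keratinocytes were few. Of 6 immune markers 1 was in the table (Ptprc, 0.514 to 1.72 CPM over replicates), of 5 Merkel cell markers 1 (Krt8, 0.517 to 5.14 CPM), of 5 melanocyte markers 3 (10.1 to 25.9 CPM summed) and of 5 fibroblast markers 4 (6.95 to 61.7 CPM summed, highest in RepI and carried there by Dcn). The endothelial list summed to 1265 to 8773 CPM over its 3 markers in the table, nearly all of it Pecam1, which had a read in all 310 cells, while Kdr was at 0 to 0.411 CPM, Flt1 at 0.344 to 17.1 CPM and Cdh5 was not among the genes. The 8 basal markers other than keratins, such as Col17a1, the hemidesmosome collagen, and Itga6, its integrin partner, summed to 1009 to 1958 CPM. Lrig1 itself had a read in 113 cells (36.5%). The part of these other cell types in the keratin results was not tested.

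Krt14 was the most abundant of the 3 keratins and the one that varied most. Summed over the cells of a replicate, Krt14 reached 19615 CPM in RepI and 4626 CPM in RepL. The 38wUW replicates RepM and RepN had 1808 and 825 CPM. Both 38w replicates thus lay above both 38wUW replicates, but they were also far apart from each other, with group means of 12120 ± 10599 and 1316 ± 696 CPM (SD, n = 2 each). The high value of RepI came from plate C114, at 23571 CPM, whereas plate C118 of the same replicate was at 1204 CPM, between RepM and RepN. The edgeR quasi-likelihood test over all genes gave a log2 fold change of 3.46 (SE 1.47), with p = 0.0321 and an adjusted p of 0.617. The difference in Krt14 therefore did not pass the threshold of 0.05 after adjustment.

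Krt5, the type II partner, followed the same order at a lower level. Its levels were 1988 CPM in RepI and 977 CPM in RepL, with 429 and 407 CPM in RepM and RepN. The 38wUW replicates were close to each other (418 ± 15.5 CPM) and the 38w replicates were not (1482 ± 715 CPM). Plates C114 and C118 stood at 2281 and 622 CPM, both above RepM and RepN. The log2 fold change was 2.08 (SE 1.04, edgeR p = 0.064, adjusted p = 0.634), again short of the threshold.

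Krt15 did not follow its neighbours. Its replicates overlapped, with 733 and 591 CPM in the 38w replicates RepI and RepL, and 569 and 635 CPM in RepM and RepN (means 662 ± 101 and 602 ± 46.9). Plates C114 and C118 lay on either side of all of them, at 857 and 156 CPM. The edgeR log2 fold change was 0.39 (SE 0.94, p = 0.684, adjusted p = 0.921), and its direction turned when plate C114 was left out (−0.46, SE 0.7, adjusted p = 0.997).

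**Figure D1:**
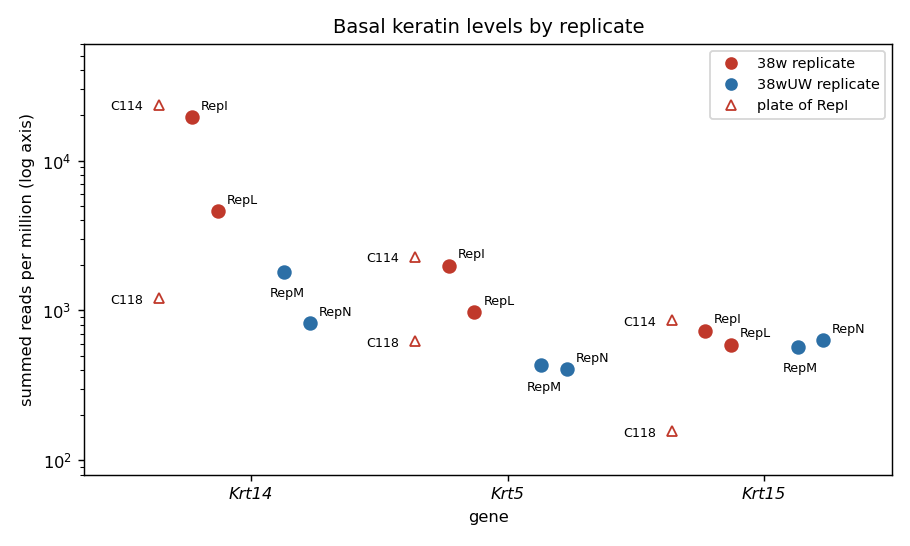
Summed CPM (log axis) of each gene in the 4 replicates (filled circles, red for 38w and blue for 38wUW) and in the 2 plates of RepI (open triangles). Krt14 spans 825 to 19615 CPM and Krt15 only 569 to 733 CPM over replicates, and plate C118 lies far below plate C114 for each gene.

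In this comparison edgeR called 0 of 11760 genes (0%), although 949 (8.07%) had an unadjusted p under 0.05, Krt14 among them. DESeq2 called 68 genes (0.578%), and Krt14 was one of them (log2 fold change 3.52, SE 0.93, adjusted p = 0.0323), while Krt5 was not (2.15, adjusted p = 0.202). Both 38w replicates lay above both 38wUW replicates for 1483 genes (12.6%, with 3081 or 26.2% the other way) on the raw CPM scale and for 2084 (17.7%, with 2449 or 20.8% the other way) after TMM scaling, and Krt14 and Krt5 but not Krt15 were of this kind. The median log2 fold change of all genes was 0.12. The call on Krt14 and Krt5 also depended on RepL. Without it, and with the lone RepI assumed to vary like the 38wUW replicates, Krt14 was called at 4.23 (SE 0.67, adjusted p = 2.78e-07) and Krt5 at 2.59 (SE 0.65, adjusted p = 0.00292), together with 1215 genes in all. Without RepI, 169 genes were called, and neither Krt14 (2.04, adjusted p = 0.1) nor Krt5 (1.45, adjusted p = 0.35) was.

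The labels hold 2 batch tags, a first and an alternative one, which pair the plates differently. Within the first tag, Krt14 was higher on the 38w plate by a log2 difference of 3.7 (C114 against C128), 2.49 (C119 against C129) and 0.55 (C118 against C129). Within the alternative tag the differences were 4.84 (C114 against C129), 1.36 (C119 against C128) and −0.59 (C118 against C128). Krt5 was higher on the 38w plate in all 6 pairs, by 0.54 to 2.49. Together the 2 tags cover every pair of a 38w and a 38wUW plate. That Krt5 was higher in all 6 thus restates the plate levels and adds no control for batch. Krt15 differences ran from −2.03 to 0.59 and took both signs. Without plate C114 the edgeR log2 fold change was 1.37 (SE 0.76) for Krt14 and 1.18 (SE 0.59) for Krt5, and neither was called. The part of the ribosomal protein share of C114 in its keratin level was not tested beyond leaving those genes and the mitochondrial genes out of the totals, which gave 3.53 for Krt14 and 2.14 for Krt5.

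The replicates had Krt14 in like shares of cells but differed in how many cells had it at a high level. With every cell thinned to 20000 reads, which 277 cells reached, a Krt14 read was found in 61 of 68 cells of RepI (89.7%), 63 of 70 of RepL (90%), 57 of 64 of RepM (89.1%) and 62 of 75 of RepN (82.7%). The group means differed by 3.99 percentage points (exact two-sided permutation p = 0.33, the smallest that 2 against 2 replicates allow), and by −2.63 points without plate C114. Cells with at least 100 Krt14 reads of the 20000, however, made up 36 of 68 in RepI (52.9%) and 23 of 70 in RepL (32.9%) against 8 of 64 in RepM (12.5%) and 3 of 75 in RepN (4%). The median number of Krt14 reads per thinned cell was 48 in RepL, 29.5 in RepM and 9 in RepN. In RepI it was 290 on plate C114 and 18 on plate C118, where 2 of 17 cells had 100 reads or more. Before thinning, the shares of cells with a Krt14 read were 91.4%, 90.7%, 90.2% and 88% in the same order.

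Krt5 reads were found in 76.5% and 75.7% of the thinned cells of RepI and RepL and in 53.1% and 72% of those of RepM and RepN. The 38w values were higher by 13.5 percentage points on average, again with an exact permutation p of 0.33, but by only 4.71 points without plate C114 (exact permutation p = 0.667). The unthinned shares were 82.9%, 77.3%, 62.2% and 77.1%, so that RepL and RepN were then level. Krt15 reads went the other way, with 52.9% and 47.1% in 38w and 56.2% and 60% in 38wUW (difference −8.08 points, and −14 without plate C114, exact permutation p = 0.33 for both). Unthinned, they were in 64.3%, 56%, 64.6% and 72.3% of cells. Wilson 95% intervals, which cover counting error only, were 35.9 to 58.7% for Krt15 in RepL and 48.7 to 70.3% in RepN, and so overlapped.

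Krt15 reads were concentrated in few cells, most of all in RepL. There the 5 cells with the most reads carried 77.8% of all Krt15 reads, against 56.4% in RepI, 47.3% in RepM and 47.1% in RepN. The same share was 42.6%, 47.6%, 34.5% and 53% for Krt5 in RepI, RepL, RepM and RepN, above that of Krt15 in RepN, and 31.6 to 42.5% for Krt14. These shares use unthinned reads, so deeply read cells weigh more, and they were not computed after thinning. In RepL the cell with the most Krt15 reads had 551629 reads in all. The highest single cell had 134926 CPM of Krt14, which was in RepI, 8897 CPM of Krt5, also in RepI, and 13338 CPM of Krt15, in RepL.

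**Figure D2:**
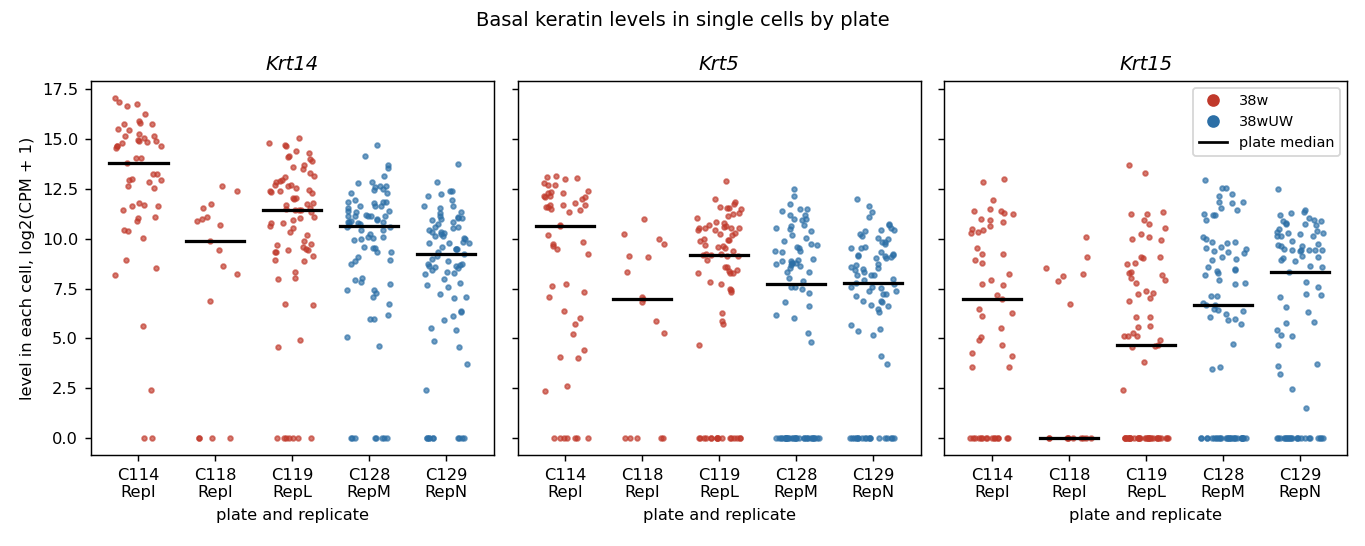
Level of each keratin in every cell as log2(CPM + 1), by plate, with the plate median as a black bar, red for 38w and blue for 38wUW. Krt14 medians are highest on C114 and C119, while many cells of every plate have no Krt15 read and the median of C118 is 0.

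Since Krt14 and Krt15 share a partner, their balance within a replicate was compared, which does not depend on how libraries are scaled. Per kilobase of transcript, there were 0.0373 and 0.128 Krt15 reads for each Krt14 read in the 38w replicates RepI and RepL. The 38wUW replicates RepM and RepN had 0.314 and 0.769. The log2 ratio of Krt15 to Krt14 was −3.86 ± 1.25 in 38w and −1.02 ± 0.91 in 38wUW (SD, n = 2 each), a difference of −2.83 with an exact permutation p of 0.33, again the smallest possible. Without plate C114 the difference was −1.94, so that C114, with the lowest ratio per kilobase (0.0363), added to its size. The ratio was 0.129 on plate C118 and 0.128 on C119, so all 3 plates of 38w lay below both plates of 38wUW. The sum of the 8 bulge markers moved with the ratio, at 383 and 1095 CPM in RepI and RepL and 1235 and 1791 CPM in RepM and RepN. Not every marker did so. Among them Krt24 went the other way, at 120 and 34.8 CPM in RepI and RepL and 7.68 and 5.48 in RepM and RepN. Postn, a large part of the sum, overlapped between the groups, at 66, 771, 695 and 1079 CPM in the same order. The study uses Postn as a marker of the infundibulum. The part of the bulge markers in the ratio was not tested.

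The ratio of Krt14 to Krt5 per kilobase was 12.8 and 6.13 in RepI and RepL, and 5.45 and 2.62 in RepM and RepN. The log2 ratio differed by 1.23 between the groups (2.77 ± 0.75 and 1.55 ± 0.75, exact permutation p = 0.33). Here the plates of RepI disagreed, with 13.4 on C114 and 2.5 on C118, the lowest of all, and without C114 the difference shrank to 0.05. Of Krt15 and Krt5, Krt15 was the lower in 38w (0.477 and 0.782 per kilobase in RepI and RepL) and the higher in 38wUW (1.71 and 2.01).

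**Figure D3:**
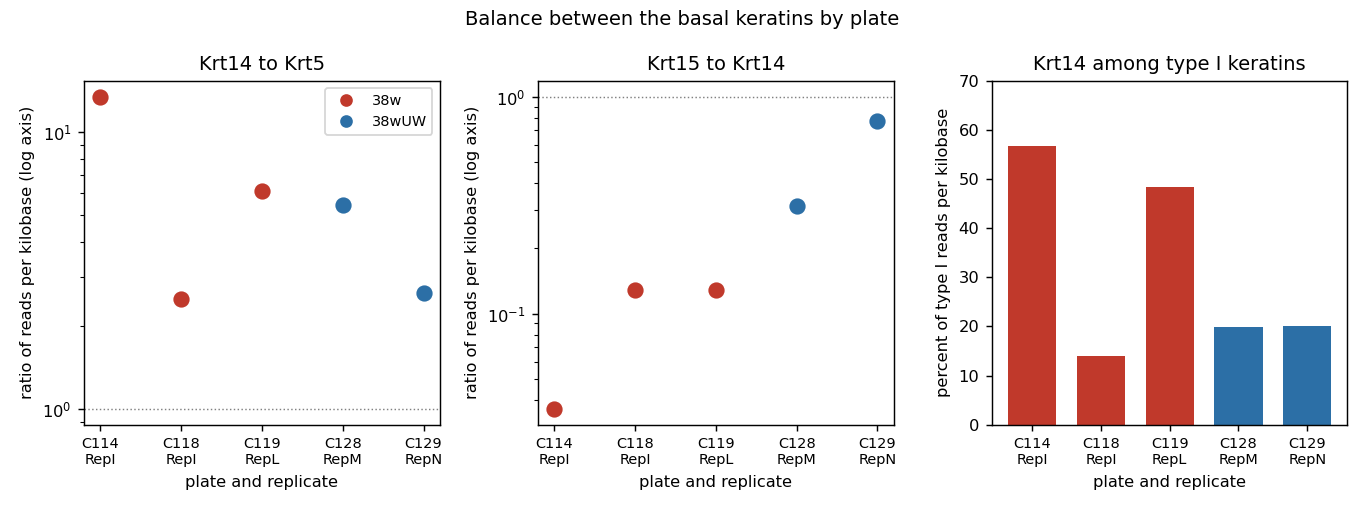
Ratios of reads per kilobase of transcript for Krt14 to Krt5 and Krt15 to Krt14 (log axes, dotted line at 1) and the percentage of all type I keratin reads per kilobase that were Krt14, by plate, red for 38w and blue for 38wUW. The Krt15 to Krt14 ratio is 0.0363 to 0.129 on the 38w plates and 0.314 and 0.769 on the 38wUW plates, while C118 has the lowest Krt14 share, 13.9%.

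Among the 17 type I keratins in the table, Krt14 made up 54.9% and 48.5% of reads per kilobase in RepI and RepL, against 19.8% and 20% in RepM and RepN. It ranked at place 1 of the 32 keratins in both 38w replicates, and at place 4 in RepM and place 3 in RepN, where Krt10, the suprabasal type I keratin, and Krt79, a type II keratin of the infundibulum and sebaceous duct, were the top pair. On plate C118 Krt14 was at 13.9%, with Krt10 on top and Krt79 only at place 8. Krt5 made up 17.6% and 28% of the 15 type II keratins in RepI and RepL and 7.56% and 13.8% in RepM and RepN. Krt15 was 2.05 to 15.4% of the type I keratins, lowest in RepI and highest in RepN. Type I keratins in all exceeded type II keratins in each replicate, by 4.1, 3.53, 2.08 and 1.8 times per kilobase in RepI, RepL, RepM and RepN.

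In single cells the 3 keratins were mostly found together. Of the 277 thinned cells, 131 (47.3%) had reads of all 3 and 20 (7.22%) of none. Krt14 alone was found in 54 cells and Krt14 with Krt5 in 48. Fewer cells had Krt14 with Krt15 but no Krt5 (10), Krt5 with Krt15 but no Krt14 (9) or Krt5 alone (5). Krt15 was the only one in 0 of 277 cells, and in 1 of the 310 cells before thinning. If cells were independent draws, 0 of 277 would allow a share of up to 1.08%. Within single replicates the limit was 4 to 4.69%. Most cells with Krt15 also had Krt5, in 33 of 36, 32 of 33, 31 of 36 and 44 of 45 cells of RepI, RepL, RepM and RepN. The reverse depended on the replicate. Among cells with a Krt5 read, Krt15 was found in 63.5% in RepI (Wilson 95% interval 49.9 to 75.2%) and 60.4% in RepL (46.9 to 72.4%), against 91.2% in RepM (77 to 97%) and 81.5% in RepN (69.2 to 89.6%). Cells with Krt14 and Krt5 but no Krt15 were 26.5% and 30% in the 38w replicates and 3.12% and 9.33% in the 38wUW replicates. These conditional shares were computed after the data had been seen and were given no test. By plate, Krt15 was found in 66.7% of cells with Krt5 on C114, 50% on C118 (5 of 10) and 60.4% on C119.

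Krt15 outnumbered Krt14 per kilobase in 3 of 68 thinned cells of RepI (4.41%), 10 of 70 of RepL (14.3%), 13 of 64 of RepM (20.3%) and 25 of 75 of RepN (33.3%). Krt5 outnumbered Krt14 in 1, 4, 6 and 21 cells of the same replicates. In most cells, therefore, Krt14 was the leading basal keratin, and the exceptions were more common in both 38wUW replicates than in either 38w replicate.

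How tightly the 3 keratins went together from cell to cell was described within plates, since levels differed between them. Cells of a plate share depth and handling, so no p is given. Spearman's correlation of Krt14 with Krt5 was 0.76 on C114 (53 cells), 0.52 on C118 (17 cells) and 0.71 on C119 (75 cells), against 0.33 on C128 (82 cells) and 0.2 on C129 (83 cells). Krt5 and Krt15 correlated at 0.5 to 0.68 on 4 plates and at 0.13 on C118. Krt14 and Krt15, the pair of type I chains, were the least alike on 4 of the 5 plates, at −0.14 to 0.41 over all 5, whereas on C118 they correlated at 0.31, above Krt5 and Krt15. In thinned cells the coefficients of Krt14 with Krt5 were 0.67 and over on C114 and C119, and 0.27 and 0.05 on C128 and C129.

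Averaged over the 5 plates, the genes most like Krt14 among 6274 ranked were Tspo, a protein of the outer mitochondrial membrane (mean Spearman correlation 0.54), Krt5 (0.5), the actin-severing protein Cfl1 (0.49), the translation factor Eif5a (0.46) and the glycolytic enzyme Gapdh (0.46). Those most like Krt5 were the calcium-binding S100a6 (0.69), Col17a1 (0.67), the ferritin chains Fth1 (0.65) and Ftl1 (0.6), and Tspo (0.6). Those most like Krt15 were the taurine transporter Slc6a6 (0.49), Krt5 (0.49), caveolin Cav1 (0.48), the laminin chain Lamb3 (0.47) and the growth factor Ptn (0.47). Krt5 thus stood at place 2 on the lists of both type I chains, while Krt15 stood at place 601 for Krt14. At the other end, Krt15 was most negative with Calm4 (−0.54) and Dsg1a (−0.51), genes of differentiated epidermis, and Krt5 with Sdr16c6 (−0.59) and the desmosomal Dsc1 (−0.58).

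Cells were grouped into 9 clusters from genes other than the 3 keratins. A cluster took a cell type name only from its other markers, by thresholds set after the clusters had been seen, and 4 of the 9 were named. Levels are medians over the cells of a plate with at least 5 cells of the cluster. Cluster 1, infundibular and duct differentiated-like (65 cells, led by Cst6, Sprr1a, Klk10 and Krt79), had Krt14 without its usual partner. Krt14 was at 875 to 6466 CPM over 4 plates, while Krt5 was at 0 to 15.5 CPM and Krt15 at 0 to 8.2 CPM. Of these 65 cells, 62 had a Krt14 read, 17 a Krt5 read and 22 a Krt15 read. Krt17, which holds 180 of the 1668 words of Krt14, was among the raised markers of this cluster. Its part in the Krt14 counts there was not tested.

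Cluster 5, bulge-like (29 cells, with Cd34, Lhx2, Postn, Nfatc1 and Sox9 raised), was the reverse. The only bulge marker among its top 10 genes was Postn, which the study uses as a marker of the infundibulum. Cluster 5 held 0, 1 and 5 cells of the 38w plates C114, C118 and C119 and 6 and 17 cells of C128 and C129. Krt15 was at 1249 to 1472 CPM and Krt5 at 569 to 1407 CPM over 3 plates, while Krt14 was at 45 to 643 CPM. All 29 cells had a Krt5 read, 24 a Krt15 read and 17 a Krt14 read. In 16 of the 22 that could be thinned (72.7%), Krt15 outnumbered Krt14, against 51 of 277 cells over all clusters (18.4%). The Krt15 medians of the 3 plates were 1472 on C119, 1459 on C128 and 1249 on C129, closer together than the Krt15 medians of clusters 7 and 8, the others with 3 plates or more and no median at 0.

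Cluster 8, sebocyte-like (29 cells, led by Soat1 and Scd1), kept all 3 keratins at modest levels, with Krt14 at 512 to 2546, Krt5 at 131 to 311 and Krt15 at 13.3 to 181 CPM. Cluster 2, interfollicular differentiated-like (20 cells, with Krt1 and Krt10 among its top 10 genes), had little of any, with medians of 58.1 and 184 CPM for Krt14, 0 and 41.5 for Krt5 and 0 for Krt15 on the plates C118 and C119. Cluster 7 (51 cells) was closest to the basal markers, with Itga6, Itgb1 and Trp63 raised, but none of these was among its top genes and it was left unnamed. There Krt14 was at 823 to 5470, Krt5 at 476 to 1447 and Krt15 at 41.6 to 699 CPM, and all 51 cells had a Krt5 read.

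Cluster 0 had the highest medians of Krt14 and Krt5, 24749 and 3179 CPM on C114, with Krt15 at 461 CPM. It was closest to the interfollicular differentiated markers, with Krtdap, Dmkn, Mt4 and Calm4 raised. Its top 10 genes held 1 of these, Mt4, and 1 basal marker, Ly6a, so it was left unnamed. Since 40 of its 41 cells came from C114, a cell type and a plate cannot be told apart in it. Likewise 22 of the 28 cells of cluster 3 were from C119, at 4608 CPM of Krt14. Cluster 6 (14 cells, led by cell-cycle genes such as Top2a and Ccnb1) had 1599 CPM of Krt14, 381 of Krt5 and 320 of Krt15 on C128, the only plate with enough of its cells.

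Within clusters that held cells of both groups, Krt14 was mostly higher on the 38w plates, as in the sums. In cluster 1 the medians were 6466 CPM on C114 and 1640 on C119 against 1388 on C128 and 875 on C129. In cluster 7 they were 3359 on C118 and 5470 on C119 against 2359 and 823. In the bulge-like cluster they were 643 on C119 against 109 and 45, and in the sebocyte-like cluster 2546 against 604 and 512. Cluster 4 (33 cells, unnamed) went the other way, at 764 on C119 against 3229 and 4450. Krt15 was lower on the 38w plates in clusters 7 (231 and 41.6 against 343 and 699), 8 (13.3 against 101 and 181) and 4 (0 against 740 and 725), but not in the bulge-like cluster. With 5 to 25 cells per plate in clusters 1, 4, 5, 7 and 8, these medians are a description and were not tested.

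**Figure D4:**
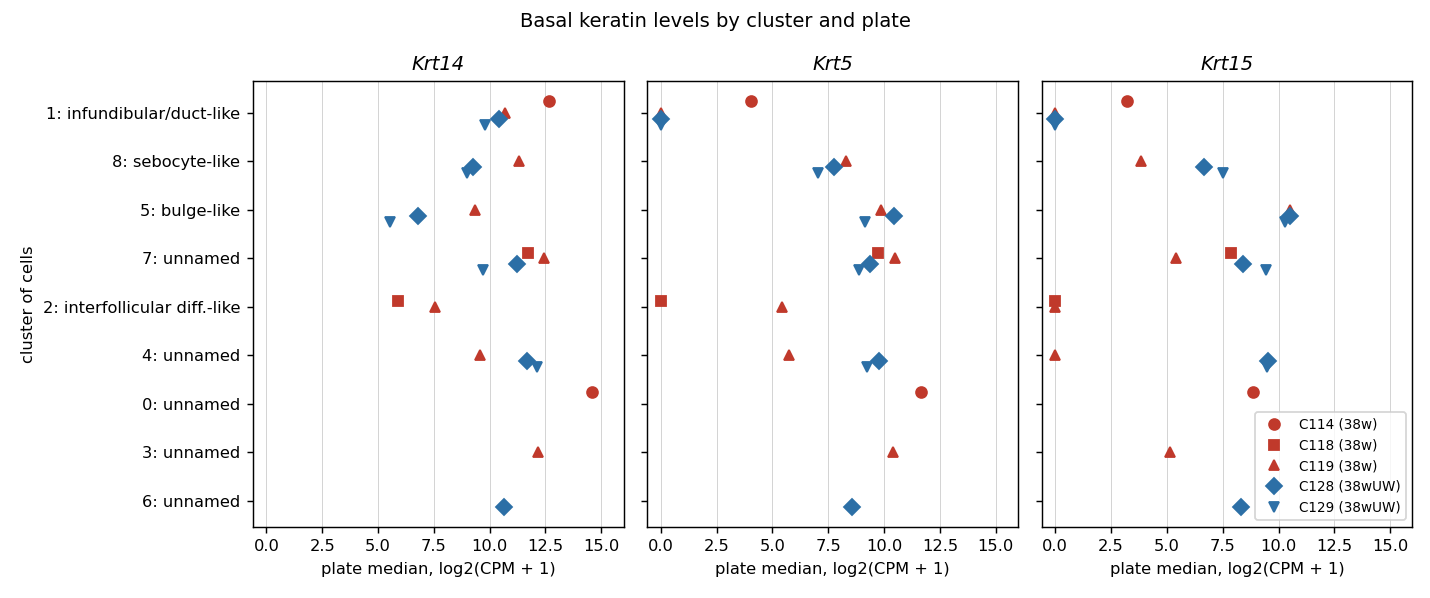
Median level of each keratin as log2(CPM + 1) in each cluster, with a symbol for each plate that holds at least 5 of its cells, red for 38w and blue for 38wUW. Cluster 1 has Krt14 with Krt5 and Krt15 near 0, and the bulge-like cluster 5 has Krt15 at 1249 to 1472 CPM with Krt14 at 45 to 643 CPM.

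The other genes of the keratin system were taken from lists written with earlier results of these data known. As with the 3 keratins, none of them passed the adjusted edgeR threshold, so they are described by counts and medians beside the median of 0.12 for all genes. Of 9 other type I keratins tested, 2 had an unadjusted p under 0.05 and were higher in 38w (median log2 fold change 0.72). They were Krt36, a hair-type keratin (6958 and 1802 CPM in RepI and RepL, 6.03 and 0 in RepM and RepN, adjusted p = 0.461), and Krt24 (120 and 34.8 against 7.68 and 5.48 CPM, adjusted p = 0.611). Of 10 other type II keratins, 2 were higher and 1 lower (median 0.01). Krt84, also of the hair type, was at 1710 and 698 CPM against 0.731 and 0 (adjusted p = 0.0879), and Krt2, of late suprabasal layers, at 4278 and 1063 against 531 and 58.5 CPM. Krt77 was lower, at 5.14 and 3.96 against 36.2 and 52.9 CPM. Plate C118 held 426 CPM of Krt36 and 108 of Krt84, so both plates of RepI had them.

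Of 18 genes that anchor or link keratin filaments, such as plakins, desmosomal and hemidesmosomal proteins, 1 was higher with an unadjusted p under 0.05 and none lower (median 0.39). This was Itgb4, the integrin chain that holds Krt5 and Krt14 filaments to hemidesmosomes through plectin, at 84.9 and 64.3 CPM against 21.9 and 16.5 (log2 fold change 2.2, SE 0.89, adjusted p = 0.617), with 12.2 CPM on plate C118. Jup was also higher, at 269 and 115 against 111 and 60.8 CPM (67.5 on C118), while Dsc2 was lower, at 0.206 and 22.9 against 45 and 40.7. Both 38w replicates lay above both 38wUW replicates for 4 of the 18 and below for 5, beside 12.6% and 26.2% of all genes. Of 22 other basal layer genes 3 were higher and 0 lower (median 0.6). The growth factor binding proteins Igfbp2 (81.3 and 30.7 against 5.67 and 7.26 CPM) and Igfbp3 (33 and 122 against 8.95 and 24.6), and the surface protein Ly6a (593 and 97.9 against 34.9 and 111) were these. Plate C118 had 1.16 CPM of Igfbp2 and 3.49 of Igfbp3, below both 38wUW replicates, so that the level of RepI came from C114 (98.6 and 39.3 CPM). Of 22 transcription regulators of basal keratins 0 were higher and 1, the AP-1 subunit Fosl1, lower (median −0.02, Fosl1 at 0.617 and 0.345 against 4.2 and 5.64 CPM). None of the 22 had both 38w replicates above both 38wUW replicates, whereas 9 had both below, beside 12.6% above and 26.2% below over all genes. Among the 9 were Sp3 (41.6 and 73.6 against 164 and 183 CPM), Nfatc1 (81.6 and 73.1 against 138 and 318) and Sox9 (78 and 145 against 314 and 254), none with an unadjusted p under 0.05. Here plate C118 had 191 CPM of Sp3 and 348 of Nfatc1, above both 38wUW replicates, and 222 of Sox9, below both. For Sp3 and Nfatc1 the low level of RepI thus came from C114 (9.49 and 24.5 CPM). After TMM scaling 2 of the 22 were above and 7 below, beside 17.7% and 20.8% of all genes.

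The suprabasal differentiation genes split, with 3 of 19 higher (Mt4, Krt2 and Tgm3) and 4 lower (Krt77, Lor, Flg and Ivl) at an unadjusted p under 0.05 (median −0.33). Mt4, a metallothionein of differentiating epithelium, stood at 4545 and 369 CPM against 99.2 and 19.1. On the lower side Lor was barely detected, at 0 and 0.69 against 4.2 and 4.94 CPM. Of 14 keratin chaperones and turnover genes 0 were higher and 1 lower (median 0.28), namely the ubiquitin ligase Trim32 at 3.08 and 2.07 against 34.2 and 30 CPM. Over all 11760 genes tested, 504 were higher and 445 lower at the same unadjusted threshold.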

How the data were processed

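Single tdTomato-positive cells were sorted into 96-well plates and made into Smart-seq2 libraries (25 PCR cycles, no molecular identifiers). Per the labels and the study's methods, the authors estimated counts with Salmon 0.13.1 (builds GRCm38 and mm10 in the submitters' processing notes), and the deposited table holds these estimated counts per gene and cell, unscaled (3.6% not whole). Here they were summed per replicate, rounded and tested in R 4.3.3 by edgeR 4.0.16 (TMM, filterByExpr, quasi-likelihood test, Benjamini-Hochberg adjustment over all tested genes, two-sided, threshold 0.05), after a check on simulated counts. CPM scale a count to the total of the summed reads, without TMM factors. DESeq2 1.42.0 was an alternative. Shares of cells with a read were compared after thinning each cell to 20000 reads, which 7 38w cells and 26 38wUW cells did not reach, with an exact permutation test over replicates. Cells were clustered with scanpy (2000 variable genes, 20 components, 15 neighbours, resolution 1) without the 3 keratins, ribosomal protein and mitochondrial genes. A named cluster needed 3 raised markers, at least 1 of its own among its top 10 genes and fewer of any other type. Doublets were not called. The 2 MBULK columns, which may be pools, were counted among the 310 cells and left out in an alternative. Reads are not independent molecules, so intervals cover counting error only.

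Named genes were the 3 keratins, the 5 genes most correlated with each within plates, and from each list up to 3 genes, by fold change, whose average log2 CPM was 4 or more and whose groups did not overlap. Tgm3, Lor, Flg, Ivl, Fosl1 and Ly6a were named after their values were seen. The genes with the most negative correlation were added after their values were seen. The 3 keratins, lists and tests were chosen with earlier results of these data known. No table of protein sequences was used here.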

Additional observations from a re-analysis of the deposited data

How the results depend on the processing

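Leaving out 1 replicate at a time gave log2 fold changes of 2.04 to 4.23 for Krt14, 1.45 to 2.59 for Krt5 and 0.20 to 0.62 for Krt15, and 0 to 1215 called genes. Krt14 and Krt5 were called only without RepL (adjusted p = 2.78e-07 and 0.00292). The same ranges were 0.79 to 7.19 points for the share of cells with Krt14, 4.09 to 23 for Krt5 and −11 to −5.18 for Krt15, 0.70 to 1.76 for the log2 ratio of Krt14 to Krt5 and −3.72 to −1.95 for that of Krt15 to Krt14. By DESeq2, Krt14 was called (3.52) and 68 genes in all. The count of called genes was 1 without the low-count filter, 1 with a replicate block by batch tag over plates and 4 with a block by the alternative tag. Without plate C114 the Krt15 fold change was −0.46 and the Krt14 share difference −2.63 points. The cause of these changes was not tested. All other settings tried kept the direction and the side of the threshold, with log2 fold changes of 1.37 to 3.82 for Krt14 and 1.18 to 2.34 for Krt5 over the 13 settings that keep every replicate. The settings without ribosomal protein and mitochondrial genes were chosen after seeing the data. With 2 replicates a group, no permutation p could fall under 0.33, and 26 cells of 38wUW were too shallow to thin.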
